A study of Arabidopsis thaliana with 8 samples.

Results

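The class III homeodomain leucine zipper (HD-ZIP III) transcription factors of Arabidopsis thaliana are encoded by 5 genes, chosen here by locus: PHABULOSA (PHB, AT2G34710), PHAVOLUTA (PHV, AT1G30490), REVOLUTA (REV, AT5G60690), CORONA (CNA, AT1G52150, listed as ATHB-15 in the gene table used) and HB8 (AT4G32880). They are 5 of the 27444 nuclear protein-coding genes of that table. For each gene, every peak summit within 5000 bp of either end was collected from 4 anti-GFP ChIP-seq libraries of root apical meristems. The libraries came from plants carrying an ARR12-GFP fusion (2 libraries from independent biological replicates) and from control plants, named Col-0 in the series' design text and GFP in the sample titles (2 libraries). ARR12-GFP plants have the ecotype label Col-0, as the controls do, and both were seedlings 3 days post germination. Both were stratified for 5 days and grown at 22 °C. The promoter that drives the fusion, and whether the plants also carried the untagged ARR12 gene, were not stated in the labels. ARR12 is a B-type response regulator, the transcription factor type at the end of the cytokinin phosphorelay. The lists hold called summits and no reads, so read depth is unknown and the tissue label could not be checked against marker genes.

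HD-ZIP III proteins combine a homeodomain and leucine zipper, which bind DNA as dimers, with a START domain. Their mRNAs carry a site complementary to the microRNAs miR165 and miR166, which in the root are made in the endodermis under SHORT-ROOT and SCARECROW and confine HD-ZIP III activity towards the centre of the stele, where it sets xylem identity. PHB has also been described as an activator of the cytokinin synthesis gene IPT7 in the root, and PHB and B-type response regulators have been placed in a feedback with each other. The comparison here asks where ARR12-GFP peaks lie relative to the genes of the family.

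Summits near the HD-ZIP III genes came mostly from 1 of the ARR12-GFP libraries. Within 5000 bp of the 5 genes there were 6 summits in ARR12-GFP replicate 1 and 1 in ARR12-GFP replicate 2, against 0 in each Col-0 library. Per gene that is 1.2 summits in replicate 1, beside a mean of 0.917 over all protein-coding genes, and 0.2 in replicate 2, beside a mean of 0.625. The library means were 3.5 ± 3.54 in ARR12-GFP plants and 0 ± 0 in Col-0 plants (SD, n = 2 each), a difference of 3.5 summits. By an exact permutation test, two-sided, p was 0.333, which is the lowest value open to 2 libraries against 2, and the spread within the ARR12-GFP libraries was as large as the difference. The count was higher in 2 of 2 ARR12-GFP libraries than in either control. List size nearly fixed this direction: the nuclear lists held 8137 and 5492 summits in ARR12-GFP against 199 and 251 in Col-0. Over all protein-coding genes the Col-0 means were 0.0145 and 0.0178 summits per gene. The contrast between genotypes is therefore not particular to the HD-ZIP III genes.

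By gene, 3 of the 5 members had a replicate 1 summit (PHB, REV and HB8), where 50.4% of all protein-coding genes had one. Replicate 2 had a summit at 1 of 5 (REV), where 36.9% of all genes had one. In the Col-0 libraries 0 of 5 members had a summit, where 1.20% of all genes had one in replicate 1 and 1.42% in replicate 2. Within 1500 bp the counts were 2 of 5 in replicate 1 (PHB and HB8) and 0 of 5 in replicate 2, beside 28.1% and 19.6% of all genes, and 0 of 5 in each Col-0 library, beside 0.503% and 0.590%. With 5 genes, none of these counts sets the family apart from the genome. The HD-ZIP III genes are long, from 4970 to 5312 bp with a median of 5077 bp, against a median of 2078 bp over all protein-coding genes. Among the 333 protein-coding genes of that length range, 49.8% had a replicate 1 summit within 5000 bp and 36.3% a replicate 2 summit, both close to the shares over all lengths. In Col-0 replicates 1 and 2 the shares in that length range were 0.601% and 0.300%. None of the 7 summits lay inside an HD-ZIP III gene, where 7.74% of all genes held a replicate 1 summit and 6.31% a replicate 2 summit, and 8.71% and 7.21% of those of the members' length range.

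**Figure D1:**
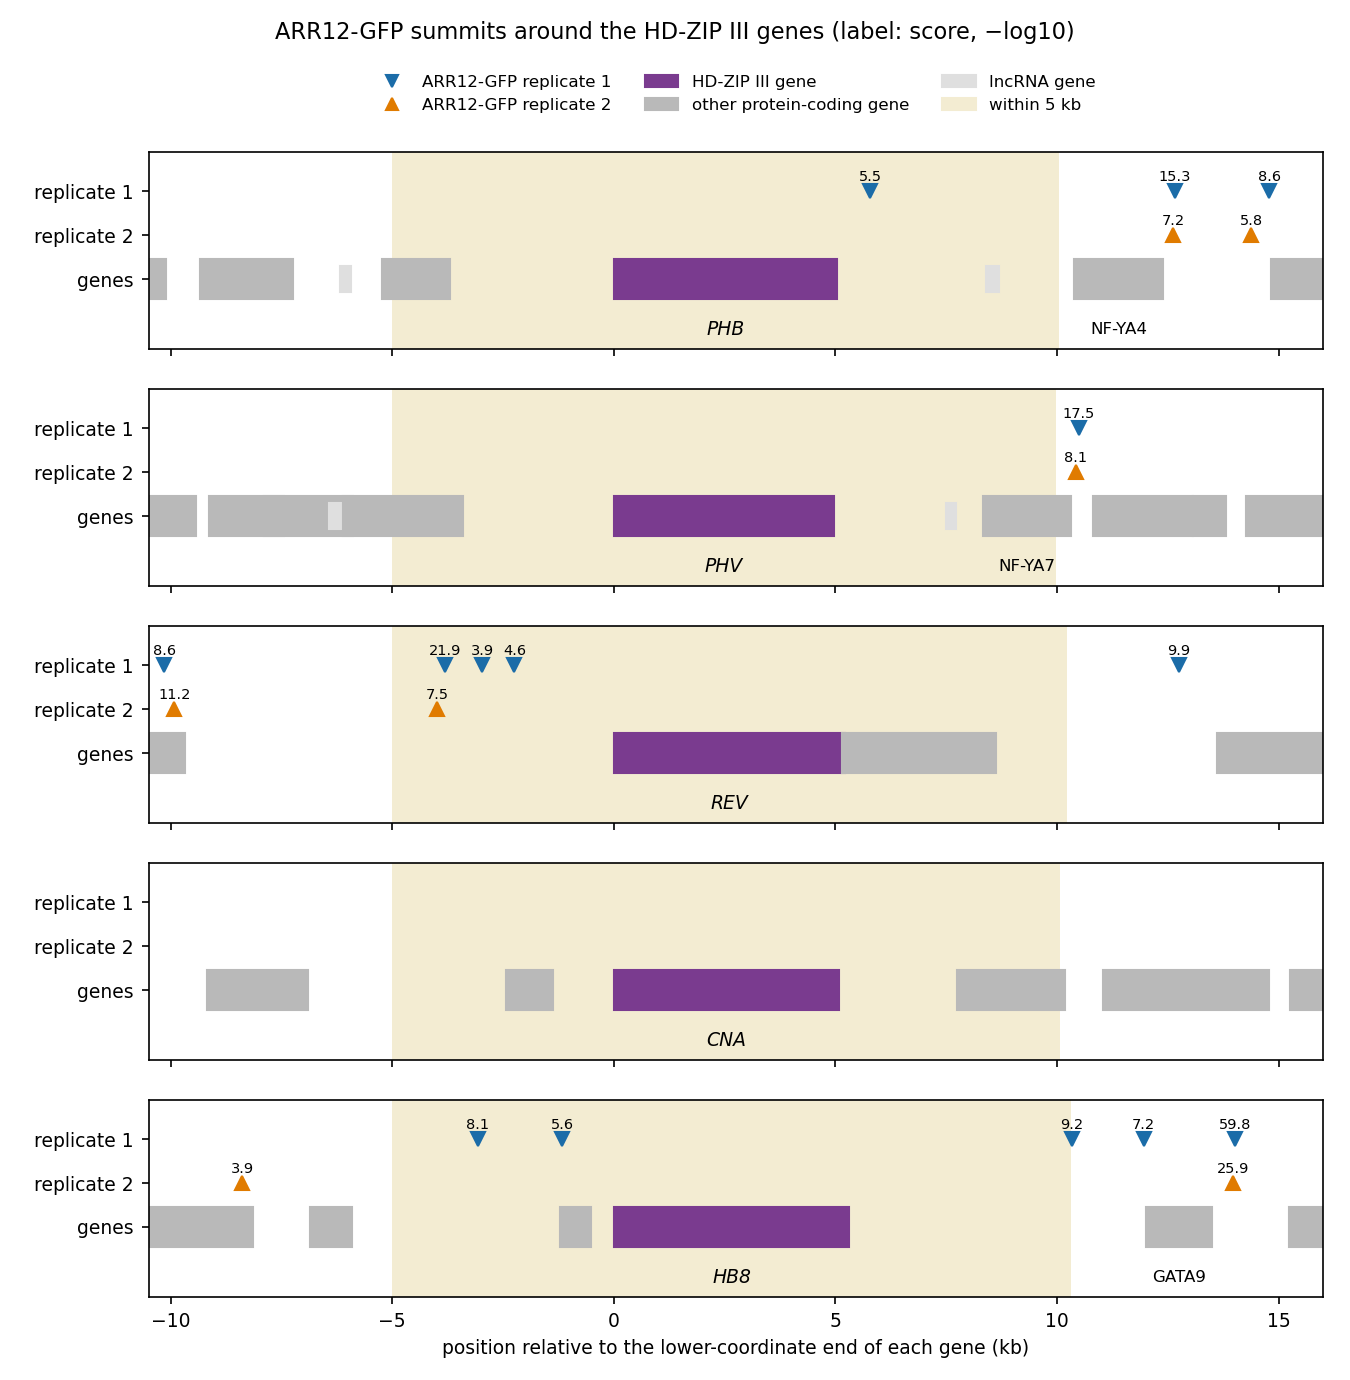
Summits of both ARR12-GFP libraries around each HD-ZIP III gene. The horizontal axis is the position in kb from the lower-coordinate end of the gene, boxes are genes, triangles are summits with their score (−log10), and shading marks the window of 5 kb. Replicate 1 has 6 summits in the shaded windows and replicate 2 has 1, at REV; the Col-0 libraries have none in the range drawn and no marker.

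REV, known for its part in vascular and interfascicular fibre development and in lateral meristem formation, had the most summits of the family. All of them lay on its lower-coordinate side, in a space of 9676 bp without a protein-coding gene that reaches to AT5G60680. That gap is longer than 96.9% of the gaps between neighbouring protein-coding genes, whose median is 877 bp. At its other end REV overlaps AT5G60700 by 67 bp in the gene table. Replicate 1 had summits at positions 24393178, 24394007 and 24394737 of chromosome 5 (TAIR10), at 3803, 2974 and 2244 bp from the gene, and they span 1559 bp. Their scores, each the authors' own −log10 value for a single peak, were 21.9, 3.92 and 4.62. The farthest of the 3 from the gene thus scored highest and ranked 1482 of 8175 in its list, above 81.9% of the summits, while the others ranked 7868 and 7463, above 3.73% and 8.60%. Over all protein-coding genes, 10.8% had at least 3 replicate 1 summits in such a window, and 12.0% of those of the members' length range did.

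Replicate 2 had a single summit near REV, at position 24392987 and 3994 bp from the gene. It scored 7.48 and ranked 2775 of 5492, above 49.5% of its list. It lay 191 bp from the strongest replicate 1 summit. Joining summits of both libraries within 200 bp and removing those within 200 bp of a Col-0 summit gave 3503 reproducible sites in the genome, and REV had 1 of them, 3899 bp away with REV as its nearest protein-coding gene. The other members had none within 5000 bp. This count of 1 of 5 stands beside 28.5% of all protein-coding genes and 28.8% of those of the members' length range. The pair at REV is one of the most loosely matched in the genome: the median distance between the best summits of a site was 51 bp, and 51 of the 3503 sites (1.46%) had their best summits 191 bp or more apart. When summits had to match within 100 bp, 0 of 5 members had a reproducible site, beside 23.5% of all genes. When only summits at or above their list's median score were used, the count was also 0 of 5, beside 16.4%.

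PHB, which specifies xylem cell identity and adaxial leaf fate, had 1 summit in replicate 1 and none in replicate 2. The summit lay at position 14645112 of chromosome 2, 757 bp from the gene on its higher-coordinate side, and PHB was its nearest protein-coding gene. It scored 5.47 and ranked 6858 of 8175, above 16.1% of the list. The nearest replicate 2 summit was 7585 bp away. Of all protein-coding genes 21.7% had a nearer replicate 1 summit than PHB, and 47.0% had a nearer replicate 2 summit.

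HB8, a gene of procambial cells that marks future veins, had 2 summits in replicate 1 and none in replicate 2. Both lay on the lower-coordinate side of chromosome 4, at position 15862175, 1164 bp from HB8, and at 15860269, 3070 bp away. Their scores were 5.60 and 8.13, which ranked 6770 and 5035 of 8175. For both, the nearest protein-coding gene was AT4G32870, which lies 524 bp from HB8: the nearer summit was inside it and the other 1848 bp from it. The nearest replicate 2 summit to HB8 was 8388 bp away. Having a replicate 1 but no replicate 2 summit within 5000 bp, as PHB and HB8 did, applied to 16.6% of all protein-coding genes.

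PHV, the closest relative of PHB, and CNA, which limits meristem size together with other members, had no ARR12-GFP summit in the window, which also held for 46.5% of all protein-coding genes and 47.4% of those of the members' length range. They differed in what lay beyond. At PHV the nearest summits were just outside, at 5519 bp in replicate 1 and 5458 bp in replicate 2. At CNA the nearest summits were at 18194 bp in replicate 1 and 44871 bp in replicate 2, and the nearest reproducible site at 55350 bp. For replicate 1, 85.1% of protein-coding genes had a summit nearer than CNA did, and for replicate 2 the share was 92.3%. Only 13.2% of genes lay as far as CNA from the nearest summit of either library. The nearest summit of either Col-0 library was 72905 bp from HB8, 212124 bp from CNA, and 508123 bp or more from REV, PHV and PHB. Over all protein-coding genes the median distances were 380795 bp in Col-0 replicate 1 and 308905 bp in Col-0 replicate 2. HB8 and CNA thus lay nearer to a Col-0 summit than most genes, and REV, PHV and PHB farther.

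**Figure D2:**
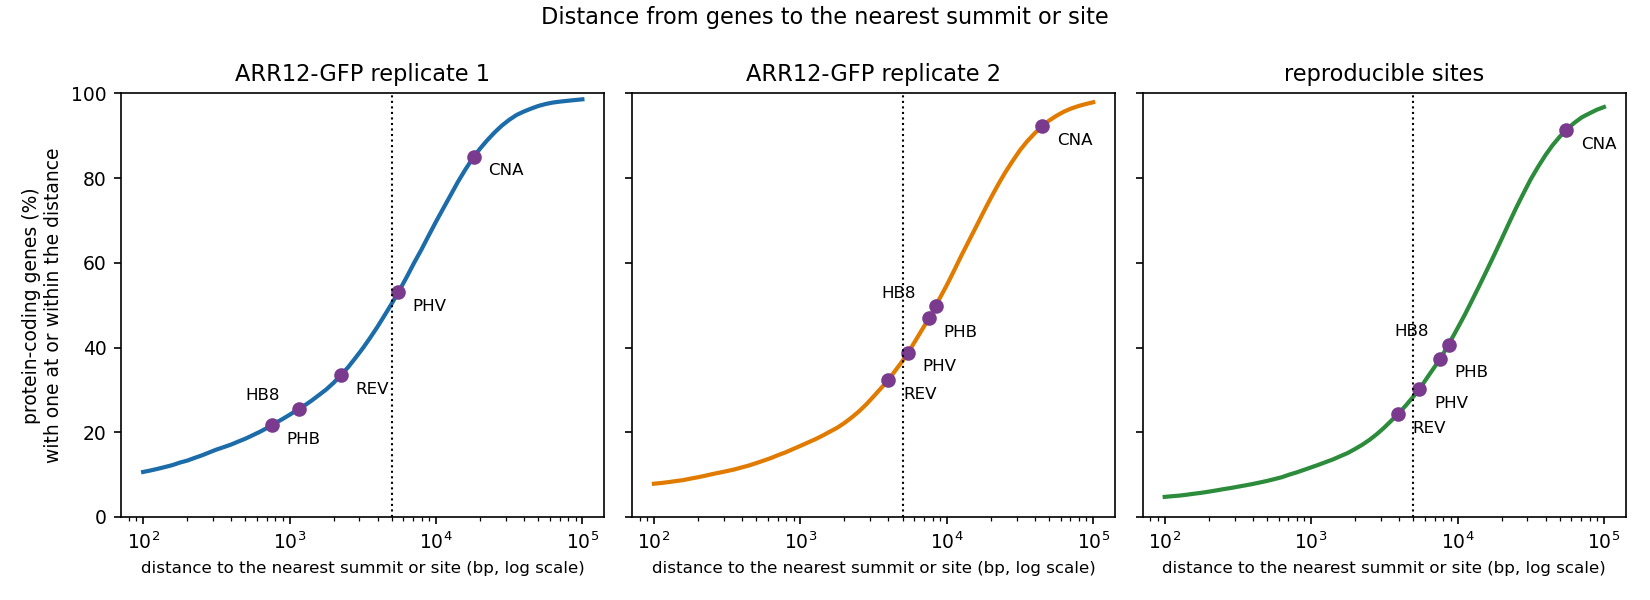
Cumulative share of the 27444 nuclear protein-coding genes (vertical axis, %) with a summit or reproducible site at or within a distance (horizontal axis, bp, log scale), with the HD-ZIP III genes marked as points and 5000 bp as a dotted line. In both libraries and among reproducible sites CNA sits far up the curve, at 85.1%, 92.3% and 91.4%, while REV is the member with a reproducible site left of the line.

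Of the 6 replicate 1 summits within 5000 bp, 5 scored below the median of their list, and so did the single replicate 2 summit. The summit at 3803 bp from REV was the exception. Between 5000 and 10000 bp from the genes lay 7 replicate 1 and 6 replicate 2 summits, of which 4 and 3 scored below the median of their list. The nearest one outside was a replicate 1 summit 5023 bp from HB8, which scored 9.15, and the farthest one inside was the replicate 2 summit 3994 bp from REV.

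**Figure D3:**
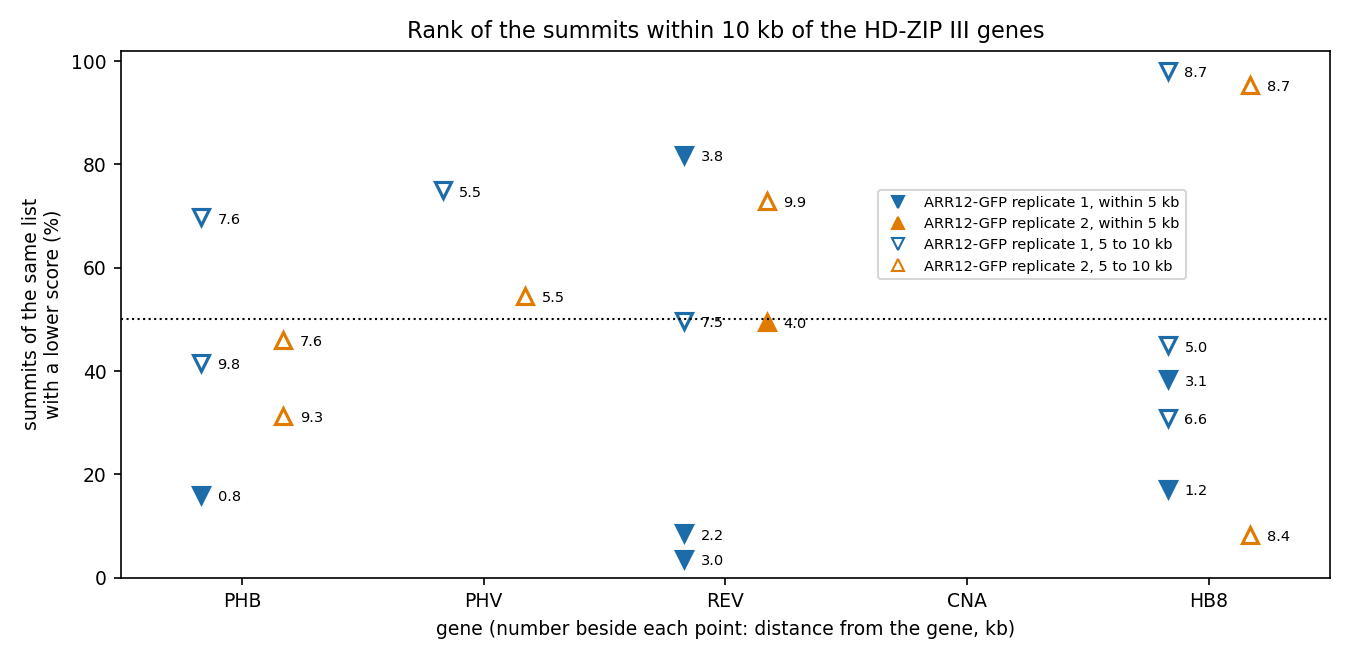
Rank of each ARR12-GFP summit within 10 kb of an HD-ZIP III gene, as the percentage of summits of the same list with a lower score (vertical axis), by gene; filled triangles lie within 5 kb and open ones 5 to 10 kb away. Filled symbols sit below the dotted line at 50% except the replicate 1 summit 3.8 kb from REV, and the highest symbols are the pair 8.7 kb from HB8.

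Reproducible sites lay 5000 to 10000 bp from 3 further members, each on the higher-coordinate side and each beyond the next protein-coding gene. At PHV the site was 5488 bp away, at position 10806581 of chromosome 1, and 153 bp from NF-YA7, which encodes a subunit of the CCAAT-binding factor NF-Y. It scored 17.5 in replicate 1 and 8.07 in replicate 2. At PHB the site was 7607 bp away, at 14651962 of chromosome 2, and 253 bp from NF-YA4, another gene for that subunit. There the scores were 15.3 in replicate 1 and 7.19 in replicate 2. PHB and PHV thus shared a neighbouring NF-YA gene on the same coordinate side, with a lncRNA gene between in both cases, and a site on the far side of that neighbour. At HB8 the site was 8680 bp away, at 15877330 of chromosome 4, and lay 503 bp from GATA9, a GATA-type transcription factor gene. Its scores of 59.8 and 25.9 were above 98.1% and 95.4% of the lists of replicates 1 and 2, higher in rank than any summit within the windows. With a window of 10000 bp, 4 of 5 members had a reproducible site, where 44.6% of all protein-coding genes had one.

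The genes that act on HD-ZIP III factors or next to them were counted in the same way, as lists. Upstream, the transcription factor list held 7 of 8 genes with a reproducible site within 5000 bp and 3 of 8 within 1500 bp, where 28.5% and 14.0% of all protein-coding genes had one. MP (AT1G19850), the auxin response factor that activates HB8, had a site 36 bp away, which scored 8.62 in replicate 1 and 6.70 in replicate 2. PEAR1 (AT2G37590), a mobile DOF factor that promotes HD-ZIP III transcription in the root vasculature, had one at 932 bp, scoring 13.6 in replicate 1 and 10.4 in replicate 2. SCR (AT3G54220), which promotes miR165 and miR166 production, had one at 749 bp, scoring 14.2 in replicate 1 and 3.37 in replicate 2, where 3.53% of the list scored lower. SHR, PEAR2, DOF6 and HCA2 had their nearest sites between 2090 and 4007 bp, and TMO6 had none within 5000 bp. At TMO6 both libraries had a summit in the window, at 3596 bp in replicate 1 and 203 bp in replicate 2, which did not match each other.

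Of the 9 miR165 and miR166 genes 1 had a site within 1500 bp, where 10.4% of 326 miRNA genes of the table had one, and the same gene made up the count within 5000 bp, where 27.0% did. This was MIR166B, whose site on chromosome 3 (position 22922112, 94 bp from the gene) scored 15.1 and 7.19. Replicate 1 also had summits 139 bp from MIR166A and 501 bp from MIR166E, while the nearest replicate 2 summits lay 14476 and 27467 bp away. The ZPR genes encode small leucine zipper proteins that inactivate HD-ZIP III dimers. Of these, 0 of 4 had a site within 5000 bp, beside 28.5% of all protein-coding genes. The gene table types ZPR4 as a non-coding RNA gene, so that share does not cover it. Replicate 1 alone had a summit at 3 of the ZPR genes, inside ZPR3, 59 bp from ZPR1 and 3609 bp from ZPR2. PHB, HB8 and 16.6% of all protein-coding genes had the same library pattern. In the list of ARGONAUTE and KANADI genes 2 of 6 had a site within 5000 bp, beside 28.5% of all protein-coding genes. The same 2 had one within 1500 bp, beside 14.0%. These were KAN1 and KAN2, which encode factors of abaxial identity that oppose HD-ZIP III activity. KAN1 had 3 sites within 1500 bp, the best with scores of 31.9 and 16.3, and KAN2 held 1 inside the gene with scores of 21.5 and 16.7. AGO10, which sequesters miR166, AGO1, KAN3 and KAN4 had none within 5000 bp. The nearest sites lay at 11222 bp from KAN3 and, just outside the window, at 5012 bp from KAN4.

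Of 6 genes described as acting downstream of HD-ZIP III factors, 4 had a site within 5000 bp, beside 28.5% of all protein-coding genes. Within 1500 bp 1 had one, beside 14.0%. The count of 4 fell to 1 with a window of 3000 bp, beside 20.4%. It also fell to 1 when only summits at or above their list's median score were used, beside 16.4%. The gene with a site within 1500 bp was TAA1 (AT1G70560), an auxin synthesis gene, which had it inside its own extent. That site scored 4.68 in replicate 1, where 9.09% of the list scored lower, and 7.93 in replicate 2. IPT7 (AT3G23630), the cytokinin synthesis gene downstream of PHB, had a replicate 1 summit 721 bp away, while its nearest replicate 2 summit was at 5962 bp and its nearest reproducible site at 5928 bp.

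The other HD-ZIP classes share the homeodomain and leucine zipper. HD-ZIP III had a reproducible site within 5000 bp at 1 of 5 genes, against 11 of 17 in class I, 9 of 10 in class II and 5 of 16 in class IV. Within 1500 bp the counts were 0 of 5 in class III, against 8 of 17, 3 of 10 and 3 of 16 in classes I, II and IV. Over all protein-coding genes the shares were 28.5% within 5000 bp and 14.0% within 1500 bp. With 5 genes, the class III counts are not set apart from these shares. Class IV resembles class III in having a START domain and long genes, with a median length of 4833 bp, whereas the medians of classes I and II were 1850 and 1934 bp. The difference between the classes was not tested. In class I, HB6 (AT2G22430) had 2 sites within 1500 bp, the nearest inside the gene. Its best-scoring site lay at 196 bp, with scores of 52.1 and 44.5. HB5 also had 2, the nearest at 1080 bp and the best-scoring at 1127 bp, and HB12 had 1 at 658 bp. In class II, HAT1 (AT4G17460) had a site at 1340 bp, scoring 91.2 and 58.1, above 99.6% of each list, and HB4 and HAT2 each held a site inside the gene. In class IV, HDG5, HDG11 and ANL2 had sites at 216 bp, at 254 bp and inside the gene, and their scores in replicate 2 lay between 4.92 and 5.30. At REV, for comparison, the site scored 21.9 and 7.48 and lay 3899 bp away.

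**Figure D4:**
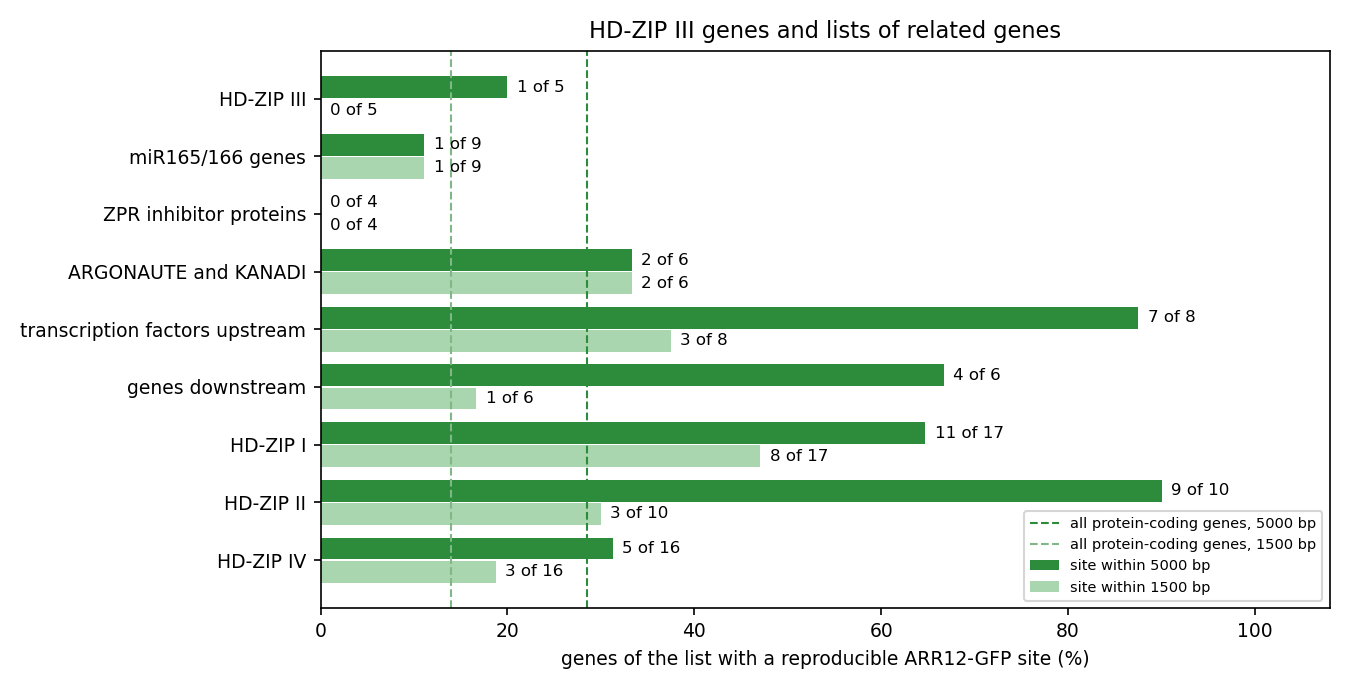
Share of genes with a reproducible ARR12-GFP site within 5000 bp (dark bars) or 1500 bp (light bars) for the HD-ZIP III genes and 8 lists of related genes, with counts beside the bars; dashed lines give the share of all protein-coding genes. The HD-ZIP III bars (1 of 5 and 0 of 5) end left of the lines at 28.5% and 14.0%, and the HD-ZIP II list has 9 of 10 genes within 5000 bp.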

How the data were processed

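Anti-GFP ChIP was done on fixed root meristem tissue of seedlings, per the labels' protocols. Per the submitters' processing notes, the build was TAIR10 and the tools included MACS2 2.1.0, Bowtie 1.1.1, FastQC 0.11.2 and SAMtools. The authors deposited 1 summit list per anti-GFP library, whose score is a −log10 p-value or q-value (which is not stated). Settings of the peak caller were not given there. The lists held 8175 and 5492 summits for ARR12-GFP replicates 1 and 2, and 428 and 301 for Col-0 replicates 1 and 2. The 4 inputs were not used as separate samples.

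Ranks are within a whole list. Other values use the 5 nuclear chromosomes. Distances came from RefSeq gene extents of assembly TAIR10.1, which give no strand, so upstream and downstream sides cannot be named. No gene coordinates are printed. The table fitted the summits: moving the replicate 1 summits in steps of 100 bp up to 2000 bp either way, the fewest fell inside protein-coding genes (29.2%) without a move. All listed identifiers were found in the table. Sites were made by single-linkage joining, within 200 bp, of summits from both ARR12-GFP libraries, and sites within 200 bp of a Col-0 summit were removed. A site's position is the midpoint of its best summit from each library. The planned motif description was not run because no sequences were used here.

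Members, lists and tests were chosen with earlier results of these data known. Named genes were all members, the nearest gene of each summit in a member's window, and in each list up to 3 genes with a site within 1500 bp, by mean score percentile. Others named (SHR, PEAR2, DOF6, HCA2, TMO6, MIR166A, MIR166E, KAN3, KAN4, the ZPR and AGO genes, IPT7) were chosen after their values were seen. So were the NF-YA genes, GATA9 and AT5G60670, while AT5G60680 and AT5G60700 were named as neighbours of REV. No gene was named for likeness of pattern, since summit lists gave no measure of it. The code was tested on simulated lists. Software was SciPy 1.17.1, NumPy 2.4.6 and pandas 2.3.3 under Python 3.11.15, with figures from matplotlib 3.10.9.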

Additional observations from a re-analysis of the deposited data

How the results depend on the processing

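The difference in summits between ARR12-GFP and Col-0 near the 5 genes was above 0 under all 10 alternatives tried. The direction could not turn, since Col-0 had 0 summits in each, and no alternative could pass 0.05. With windows of 1500 and 3000 bp and without summits below the median, ARR12-GFP replicate 2 also had 0, so the difference there rests on replicate 1. Leaving out a library in turn gave differences of 1 to 6, the 1 being without ARR12-GFP replicate 1 and the 6 without replicate 2. With the replicate number as a block the difference was again 3.5, and the exact permutation test within 2 pairs gave p = 0.5. The deviations of same-numbered libraries had r = -0.0017 across genes, which says little, since few genes have a Col-0 summit near them. Whether same-numbered libraries share more than a number cannot be told from it.

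The number of members with a reproducible site, 1 as reported, was 0 with windows of 1500 and 3000 bp (beside 14.0% and 20.4% of all genes), with summits joined within 100 bp (23.5%) and without summits below the median score (16.4%), and 4 with 10000 bp (44.6%). Leaving out each library gave 1 to 3 members, the 3 being from ARR12-GFP replicate 1 alone (beside 13713 of 27444 genes) and 1 from replicate 2 alone (beside 10020 of 27444). In ARR12-GFP replicate 1, 1 member in place of 3 had a summit at or above the median. In ARR12-GFP replicate 2 the count of 1 became 0 with 1500 bp, beside 19.6% of all genes, and 4 with 10000 bp, beside 54.7%. It also became 0 with 3000 bp, where 26.6% of all genes had a summit within 2818 bp and 28.4% within 3162 bp. Without summits below the median it was 0 as well. For single libraries above the median the share of all genes was not counted, so those counts are not read as a result about the members. The Col-0 counts were 0 throughout. For the 8 other lists, alternatives mostly added after the data were seen moved 19 of 96 counts by over 1.5 times, 7 up and 12 down. Read depth is unknown, so an absent summit is not shown to be absent binding.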

Other observations

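Because the sites nearest to PHB and PHV lay beside NF-YA genes, the NF-YA family was looked at after these values were seen. Of its 10 genes by symbol, 4 had a reproducible site within 500 bp, where 8.50% of all protein-coding genes did, and 5 had one within 1500 bp, where 14.0% did. Both counts include NF-YA4 and NF-YA7, which prompted the look, and without them 2 of 8 had one within 500 bp and 3 of 8 within 1500 bp. NF-YA1 had one at 72 bp, scoring 26.4 in ARR12-GFP replicate 1 and 7.07 in replicate 2, and NF-YA3 held one inside the gene with scores of 2.51 and 6.12. The NF-YA5 site, at 1488 bp, scored 6.04 and 4.29. The remaining 5 genes had their nearest between 6664 and 32157 bp. No test was made.

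Near REV but outside its windows, a reproducible site 17903 bp away at position 24379078 of chromosome 5 scored 65.9 and 33.0, above 98.7% and 97.6% of the lists, with AT5G60670 as its nearest protein-coding gene at 1426 bp. Reproducible sites with lower scores lay in the same direction at 14000 and 19061 bp. On that side, outside the window, the libraries each also had summits without a partner within 200 bp. Replicate 1 had them at 12585 and 10147 bp, with scores of 55.7 and 8.59. Replicate 2 had them at 13168, 11748 and 9918 bp, with scores of 18.0, 7.55 and 11.2.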
